A study of Mus musculus with 9 samples.

Results

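Hepcidin and the genes that carry, take up, store and export iron were followed through the livers of mice with chronic colitis and of colitis mice given indirubin, an indigo-derived plant compound. The 10 genes were Hamp, Hamp2, Hfe, Tfr2, Trf, Tfrc, Fth1, Ftl1, Slc40a1 and Hpx, taken by name from the 56748 genes of the deposited table. They were chosen by a readout of these same libraries, the low Hamp level after indirubin, together with their place in iron control. For that reason values between Indirubin and DSS are given as a description with no test of these genes, and Hamp and Hamp2 are also left untested between Indirubin and Control.

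The series held bulk RNA sequencing of whole liver from mice labelled C57BL/6, given as C57BL/6J in the study's methods and bought at 7 to 8 weeks of age, in 3 groups of 3 libraries. The DSS group drank 1.8% (w/v) dextran sulfate sodium, a chemical that injures the colon lining, for 3 cycles of 1 week on and 1 week of recovery, and took sterile water by mouth at 200 µL a day. The Indirubin group had the same DSS cycles and received indirubin at 1 g/kg/day in the same volume, so every indirubin library also came from a DSS-treated mouse. The Control group is labelled as water alone, although the design text speaks of DSS colitis in the mice as a whole, and whether Control mice ever drank DSS could not be settled from it. All groups carried the same genotype, and 400 ng of RNA entered each library. The labels number the libraries but do not state that each came from its own animal, so p-values measure the spread between these libraries.

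Iron leaves macrophages, enterocytes and hepatocytes through ferroportin, the product of Slc40a1. Hepcidin, a peptide hormone made mostly by hepatocytes, binds ferroportin and removes it from the cell surface, so that plasma iron falls. Hepatocytes set hepcidin transcription by a BMP and SMAD arm that reads iron through HFE, transferrin receptor 2 and hemojuvelin, and by an interleukin-6 and STAT3 arm that acts in inflammation. Iron-regulatory proteins act at a later step: they bind hairpins called iron-responsive elements in the messenger RNAs of ferritin, ferroportin and transferrin receptor 1, and so change translation or stability.

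The promoters of the hepcidin genes are shown because both arms of control end there. RefSeq promoter entries were found for 8 of the 10 genes, and those of Trf and Slc40a1 were not matched. The 250 bases before the start of Hamp lie at chr7:30944030-30944279 on the minus strand of GRCm38.p6, and those of Hamp2 at chr7:30924182-30924431 on the same strand. Capitals mark the letters GGCGCC, known as the BMP response element of the hepcidin promoter, and TTCNNNGAA, the spacing read by STAT factors. Each reads the same on both strands, and the marked stretches do not overlap.
Hamp: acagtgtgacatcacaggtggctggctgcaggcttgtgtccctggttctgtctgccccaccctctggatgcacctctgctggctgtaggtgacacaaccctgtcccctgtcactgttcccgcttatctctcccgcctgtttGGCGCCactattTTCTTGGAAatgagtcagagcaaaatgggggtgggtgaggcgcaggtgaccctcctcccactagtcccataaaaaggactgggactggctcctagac
Hamp2: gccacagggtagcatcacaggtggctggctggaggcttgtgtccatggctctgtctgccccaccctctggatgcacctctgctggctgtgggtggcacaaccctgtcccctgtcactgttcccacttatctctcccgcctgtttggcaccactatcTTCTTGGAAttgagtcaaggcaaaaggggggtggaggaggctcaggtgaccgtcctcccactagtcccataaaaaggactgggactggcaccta

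In the Hamp promoter GGCGCC ran from 109 to 104 bases before the start, and the STAT letters from 97 to 89 bases before it. Hamp2 held the STAT letters from 94 to 86 bases before its start. At the place of GGCGCC it differed by G4A, counted from 1 at the 5′ end of the Hamp element. The aligned promoters were 89.7% identical. GGCGCC occurred in 9.59% of the 32851 promoters of the table, and among the 8 genes in Hamp and Tfrc. TTCNNNGAA occurred in 7.02%, and among the 8 genes in Hamp and Hamp2. A match of letters is a description of these windows and not a measured binding site.

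The iron-responsive elements are shown because a level of these messenger RNAs does not give the level of the proteins. GENCODE vM21 transcripts were searched for the loop CAGTGN after a C and 5 bases that pair, G with T included, with the 5 bases after the loop. Such an element lay in 4 of the 10 genes and in 0.961% of 58797 protein-coding transcripts. It stood in the 5′ UTR of Fth1, Ftl1 and Slc40a1 and at 4 places in the 3′ UTR of Tfrc. In these windows of 23 bases capitals mark the loop.
Fth1: ctgcttcaaCAGTGCttgaacgg
Ftl1: ttgcttcaaCAGTGTttgaacgg
Slc40a1: cttcagctaCAGTGTtagctaag
Tfrc, the first by position: tatcggaagCAGTGCcttccata
Tfrc, the second: tatcgggagCAGTGTcttccata
Tfrc, the third: tatcggagaCAGTGAtctccata
Tfrc, the last: tatcgggaaCAGTGTttcccata

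Libraries held 6514863 to 7944684 counts, of which 71.6% to 91.3% were mitochondrial, which left 569044 to 2132208 counts on nuclear genes. Hepatocyte markers were present in all libraries. Indirubin-2 and Indirubin-3 stood apart from the rest: 15 genes of the pancreatic acinar cell summed to 1570 and 1560 normalized CPM in them, against 0 to 22.2 in the other 7 libraries, where 7 to 15 of the 15 genes were at 0. The same libraries had the highest sums of 7 erythroid genes, at 675 and 651 normalized CPM against 112 to 267 elsewhere, and of 7 monocyte and neutrophil genes. Indirubin-1 had acute-phase levels close to Control. Normalized CPM here is the usual count per unit of library size (CPM) after that size was rescaled by edgeR's trimmed mean of M-values (TMM) over the 9 libraries. In whole liver, fewer cells of a type and less RNA per cell cannot be told apart.

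Between DSS and Control, 1 of the 9 iron genes that passed the filter on low counts was called at an adjusted p under 0.05, Hpx, and it was higher in DSS. Over all genes tested, 0.708% were called, and 7.52% had an unadjusted p under 0.05. In 4 of the 9, Tfrc, Slc40a1, Fth1 and Hpx, every DSS library lay above every Control library, against 7.1% of all genes tested. The median log2 fold change of the 9 was 0.43, and that of all 7482 genes tested was 0.01. Hamp2 was under the filter in every comparison.

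Between Indirubin and Control, 0 of the 8 genes tested were called by edgeR's quasi-likelihood test, 2 had an unadjusted p under 0.05 (Hpx and Tfrc), and the Wald test of DESeq2 called 1, Hpx. Over all genes tested, edgeR called 0.236%, DESeq2 called 3.92%, and 13.8% had an unadjusted p under 0.05, 7.45% with a higher value and 6.38% with a lower one. Only Fth1 of the 9 genes passing the filter had every Indirubin library above every Control library, against 12.2% of all genes. The median log2 fold change of the 9 was 0.50, and that of the 8059 genes tested was 0.13. This comparison shares its Control libraries with the preceding one.

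Between Indirubin and DSS, Hamp lay lower in every Indirubin library than in every DSS library, and Hfe lay higher. Libraries did not overlap in the lower direction for 5.92% of all genes and in the higher direction for 10.5%, and nothing is read from the counts of iron genes because this contrast chose them. The quasi-likelihood test called 0% of the 9117 genes tested in this comparison, where an unadjusted p under 0.05 was reached by 7.68% of all genes, 4.45% with a higher value and 3.22% with a lower one, and where DESeq2 called 0.878%. The median log2 fold change of the 9 iron genes was 0.15, the same as that of all genes tested.

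**Figure D1:**
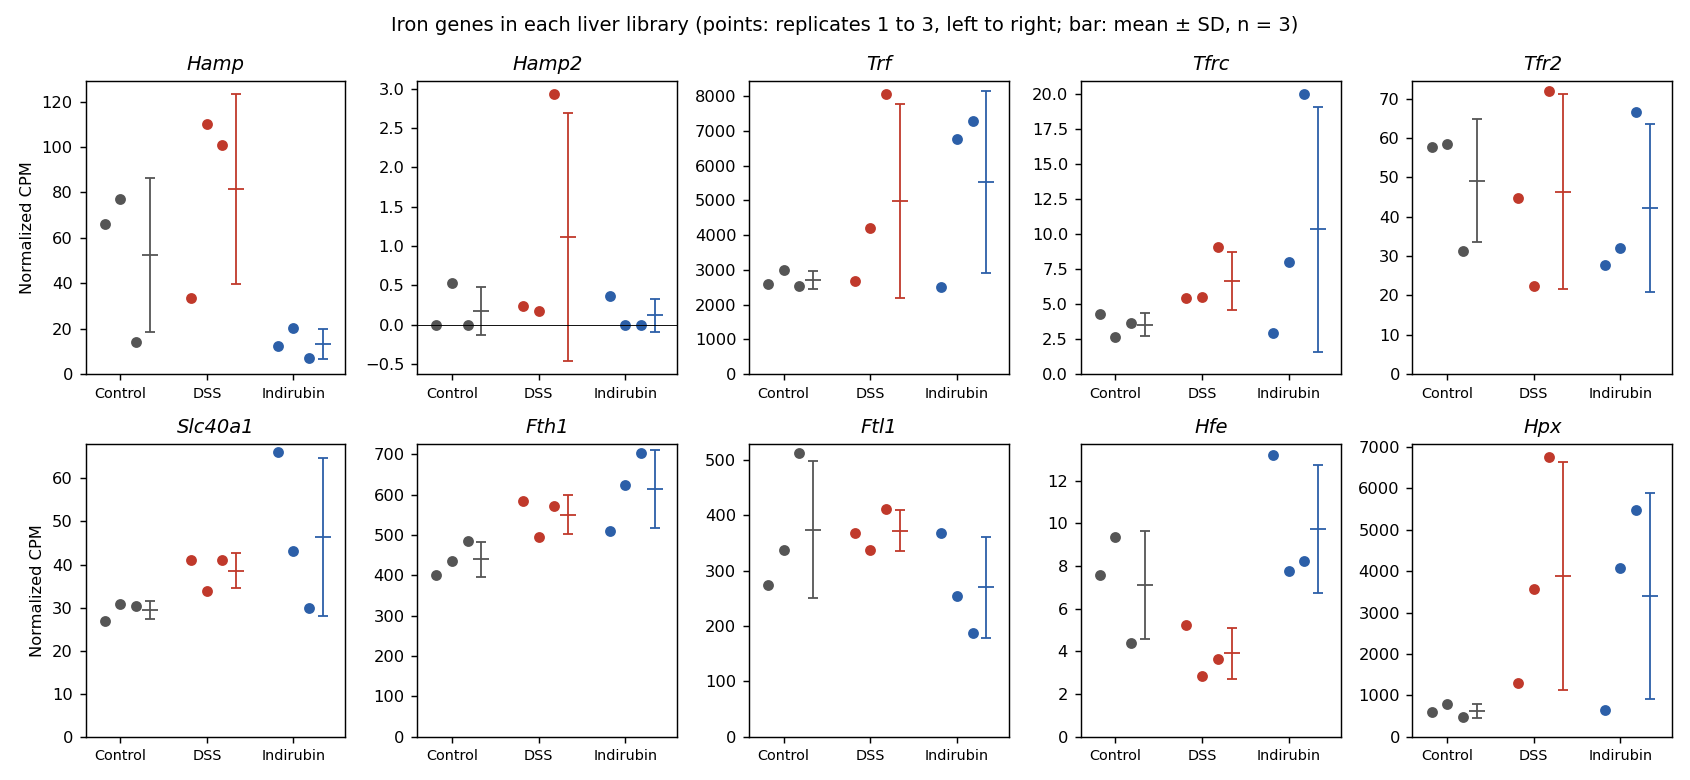
Normalized CPM of the 10 iron genes in each liver library, on a linear axis for each gene; points are replicates 1 to 3 of a group from left to right and bars are mean ± SD (n = 3). Hamp lay at 7.0 to 20.2 in the Indirubin libraries and at 33.7 to 110 in the DSS libraries, and Hpx was below 1000 in Control and in Indirubin-1 alone among the colitis mice.

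Hamp, the hepcidin gene on the minus strand of chromosome 7 (30641793 to 30643457, GRCm39), had its highest level in DSS and its lowest in Indirubin. Its counts were 339, 439 and 58 in Control, 284, 619 and 1109 in DSS, and 67, 247 and 81 in Indirubin. On the normalized scale these were 66.0, 77.3 and 14.1 CPM in Control, 33.7, 110 and 101 CPM in DSS, and 12.3, 20.2 and 7.0 CPM in Indirubin. Control-3 lay inside the Indirubin range, and the lowest DSS library, DSS-1, lay below Control-1 and Control-2.

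The Hamp means were 52.5 ± 33.7 CPM in Control, 81.6 ± 41.7 in DSS and 13.2 ± 6.66 in Indirubin (SD, n = 3). The DSS values of Hamp are part of the contrast that chose it, so its test against Control reuses them. Between DSS and Control the log2 fold change was 0.69 ± 0.53 (SE), adjusted p = 0.928 by edgeR's quasi-likelihood test, so the order of these neighbours did not hold beyond their spread. Without Control-3 it was 0.19 and without DSS-1 it was 1.05. Between Indirubin and DSS the log2 fold change was -2.63 ± 0.55 (SE), and it ran from -3.12 to -2.32 as each library was left out in turn. With Indirubin-1 alone it was -2.72, from a group of 1 library. This contrast chose the genes, so these values describe it and support nothing. Between Indirubin and Control the log2 fold change was -1.95 ± 0.59 (SE), or -2.44 without Control-3. That value was -0.95 where libraries were scaled by their total counts alone, a scaling that moved the median of all genes in the comparison to 1.11.

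The libraries were also compared on nuclear counts alone, mitochondrial genes left out. As CPM of nuclear counts, Hamp stood at 438, 444 and 102 in Control, 261, 766 and 520 in DSS, and 95.5, 129 and 45.7 in Indirubin. Hamp was also set against Alb, the albumin gene of the same hepatocytes. Per 1000 Alb counts there were 5.51, 6.03 and 1.88 Hamp counts in Control, 5.14, 19.3 and 8.67 in DSS, and 1.58, 4.43 and 1.24 in Indirubin. Both scales use the counts by which Hamp was chosen, so its values between Indirubin and DSS on them are a description and no further support. The 8 hepatocyte markers summed to 10900 to 18100 CPM in Control, 8940 to 16700 in DSS and 6400 to 10200 in Indirubin. None of the 8 markers was at 0 in any library. Between Indirubin and DSS 7 of the 8 had a log2 fold change below 0, and their median was -0.83 against 0.15 for all genes tested. For 2 of the 8 the libraries did not overlap in the lower direction, against 5.92% of all genes. The part of these markers in the Hamp values was not tested.

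Hamp2 is a neighbouring copy whose peptide is thought not to share the iron role of hepcidin-1. It had 0, 3 and 0 counts in Control, 2, 1 and 32 in DSS, and 2, 0 and 0 in Indirubin. DSS-3, which also had the most Hamp counts, was the only library with more than 3. The GENCODE transcripts of Hamp and Hamp2 were 92.4% identical when aligned, with a longest identical run of 87 bases. How shared reads were assigned was not given in the sources used here, so the Hamp2 counts are uncertain.

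**Figure D2:**
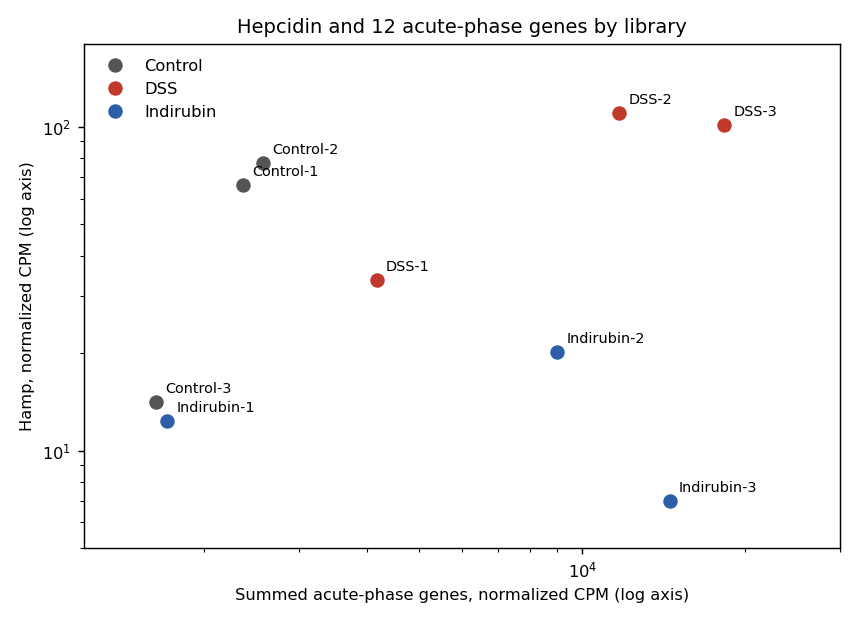
Hamp (vertical) against the sum of 12 acute-phase genes (horizontal), both in normalized CPM on log axes, with 1 point for each of the 9 libraries. Indirubin-2 and Indirubin-3 had acute-phase sums of 9000 and 14500 with Hamp at 20.2 and 7.0, while DSS-2 and DSS-3 had sums of 11700 and 18300 with Hamp at 110 and 101. The Hamp values are those by which the genes were chosen, so the plot is a description.

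Hepcidin is itself an acute-phase product, so it was set beside 12 others. All 12 passed the filter between DSS and Control, 7 were called higher and none lower, against 0.214% and 0.495% of all genes, and their median log2 fold change was 3.48. The number called by edgeR was 4 in the fit of all 9 libraries, with the replicate block, or without Control-2, Control-3 or DSS-3. In that order 11, 30, 12, 15 and 19 of all genes were called, against 53 in the fit given above. Without DSS-1 the number was 11, when 64 of all genes were called. Saa1, a serum amyloid A gene, rose by a log2 fold change of 8.25 ± 0.93 (SE, adjusted p = 0.00142 by edgeR). Saa2, its neighbour and close copy, rose by 8.80 (adjusted p = 0.00216 by edgeR). Orm2, an orosomucoid, rose by 7.74, and Apcs, the serum amyloid P gene, rose by 4.06, each with an adjusted p of 0.00216 by edgeR. The sum of the 12 was 2360, 2570 and 1630 CPM in Control, 4170, 11700 and 18300 in DSS, and 1710, 9000 and 14500 in Indirubin.

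The plot of Hamp against this sum shows the libraries apart, as a description. It uses the Hamp values of the contrast that chose the genes, so it gives no further support. DSS-2 and DSS-3 had high acute-phase sums and high Hamp. Indirubin-2 and Indirubin-3 had sums of the same order and Hamp below Control-1 and Control-2. Indirubin-1 had a sum within the Control range and a Hamp level close to that of Control-3. Between Indirubin and Control none of the 12 genes was called by edgeR, and 8 were higher at an unadjusted p under 0.05, against 7.45% of all genes. DESeq2 called 7, against 3.92% of all genes, and edgeR called 11 without Indirubin-1, against 4.78%. Orm2 had a log2 fold change of 5.97 (adjusted p = 0.0549 by edgeR), or 6.35 without Indirubin-1, when it was called (adjusted p = 0.000325 by edgeR). Between Indirubin and DSS none was called, and the smallest unadjusted p were those of Saa3 among genes with a higher value (log2 fold change 2.83, adjusted p = 0.587 by edgeR) and Orm2 among those with a lower one (-1.79, adjusted p = 0.727 by edgeR). Saa3 was at 0.89 without Indirubin-3, 4.05 without DSS-3 and -2.48 without both Indirubin-2 and Indirubin-3.

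The interleukin-6 to STAT3 list had 6 genes, and in no comparison was any called by edgeR. At an unadjusted p under 0.05 there was 1 between DSS and Control, 1 between Indirubin and Control and 0 between Indirubin and DSS, where 7.52%, 13.8% and 7.68% of all genes reached it. The list summed to 40.5 to 49.2 CPM in Control, 41.6 to 45.0 in DSS and 43.3 to 58.8 in Indirubin. Il6ra, the receptor's ligand-binding chain, was at 1.95, 2.11 and 0 CPM in Control, 3.08, 0.532 and 3.57 in DSS, and 3.86, 8.11 and 7.09 in Indirubin, above both other groups in each Indirubin library. Its log2 fold changes were 2.22 against Control (adjusted p = 0.271 by edgeR) and 1.38 against DSS (adjusted p = 0.742 by edgeR). Jak2, a kinase of the pathway, stood at -1.95 between DSS and Control (adjusted p = 0.613 by edgeR) and at -0.70 between Indirubin and Control. Without Control-3 these values were -0.77 and 0.47. Jak1 was at 0.52 between DSS and Control, and Il6st, the shared signalling chain, at -0.40 between Indirubin and DSS.

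The genes whose pattern was most like that of Hamp were sought by Pearson's r of log2 normalized CPM over the 9 libraries, among 9712 other genes. Among the 5 of highest r were Hsp90aa1 (r = 0.925), Psmb3 (0.916), Cnp (0.913) and Tmbim6 (0.911). These values are a description over libraries that share depth and group. Hsp90aa1, a cytosolic chaperone, was at 27.6, 28.7 and 18.8 CPM in Control, 24.5, 31.5 and 31.2 in DSS, and 18.7, 21.3 and 9.76 in Indirubin. Control-3, DSS-1 and Indirubin-3 were the lowest of their groups, an order that comes with the choice by r to Hamp. Its means were 25.0, 29.1 and 16.6 CPM in Control, DSS and Indirubin. Psmb3, a proteasome subunit, had 14.1, 17.3 and 11.1.

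Hfe, whose product partners with the transferrin receptors in iron sensing, was the other iron gene whose DSS and Indirubin libraries did not overlap. It had 7.59, 9.34 and 4.38 CPM in Control, 5.22, 2.84 and 3.66 in DSS, and 13.2, 7.78 and 8.21 in Indirubin. The counts behind these were low, between 16 and 95 a library. The highest DSS value fell within the Control range. For Hfe the log2 fold change was -0.81 ± 0.57 (SE) between DSS and Control (adjusted p = 0.906 by edgeR), 0.47 ± 0.45 between Indirubin and Control (adjusted p = 0.726 by edgeR) and 1.31 ± 0.51 between Indirubin and DSS. The last value ran from 0.93, without Indirubin-1, to 1.47, without DSS-1, as libraries were left out in turn.

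Tfr2, the second transferrin receptor and a sensor of iron-loaded transferrin in hepatocytes, had overlapping libraries in every comparison. It stood at 57.8, 58.5 and 31.2 CPM in Control, 44.8, 22.3 and 71.9 in DSS, and 27.7, 32.0 and 66.6 in Indirubin. The highest DSS and Indirubin libraries, DSS-3 and Indirubin-3, were above the Control range and the rest of these groups below Control-1. The log2 fold changes were -0.05 ± 0.40 (SE, adjusted p = 1 by edgeR) between DSS and Control and -0.19 ± 0.43 (adjusted p = 0.913 by edgeR) between Indirubin and Control. The value against DSS was -0.14 ± 0.50 in Indirubin and changed sign as libraries were left out in turn (-0.63 to 0.31).

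Of 18 other genes of BMP and SMAD sensing, 14 were tested between DSS and Control, 1 was called higher and none lower, against 0.214% and 0.495% of all genes. That gene was Fgl1, a hepatokine of the acute phase that can bind BMP6. It was at 72.6, 62.2 and 36.3 CPM in Control, 233, 496 and 969 in DSS, and 45.5, 266 and 278 in Indirubin. The log2 fold change between DSS and Control was 3.33 ± 0.48 (SE, adjusted p = 0.00436 by edgeR), and every DSS library lay above every Control library. The call was lost without Control-2 (adjusted p = 0.0612 by edgeR) or Control-3 (0.0798), with the value between 3.07 and 3.37. In Indirubin only the libraries with acinar transcripts were above Control: the log2 fold change was 1.82 (adjusted p = 0.189 by edgeR) and turned to -0.34 without them, while without Indirubin-1 it was 2.14 and called (adjusted p = 0.00251 by edgeR). Against DSS the Indirubin value of Fgl1 was -1.53 (adjusted p = 0.64 by edgeR).

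Tmprss6, the protease that cuts hemojuvelin and lowers hepcidin signalling, stood at 48.3, 53.2 and 31.7 CPM in Control, 31.5, 27.3 and 42.2 in DSS, and 32.9, 14.6 and 12.4 in Indirubin. Its log2 fold change between Indirubin and Control was -1.14 (adjusted p = 0.263 by edgeR), and -1.83 without Indirubin-1, when it was called (adjusted p = 0.0111 by edgeR). Smad6, an inhibitory SMAD induced by BMP signals, had 12, 27 and 16 counts in Control and 15, 0 and 5 in DSS, with a log2 fold change of -2.19 ± 1.27 (SE, adjusted p = 0.821 by edgeR) that ran from -3.75, without DSS-1, to -1.71, without DSS-2. Bmpr2, a receptor chain, had 0, 6 and 14 counts in DSS and 28, 29 and 41 in Indirubin, a log2 fold change of 2.22 (adjusted p = 0.742 by edgeR). Bmp6, the ligand that couples liver iron to hepcidin, had 0 to 11 counts in any library and was not tested. Erfe, the erythroid hormone that represses hepcidin, had 0 counts in all 9 libraries, which allows up to 3 counts in each by counting error alone.

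Hpx encodes hemopexin, the plasma protein that binds free heme and carries it to the liver. It lay at 603, 802 and 472 CPM in Control, 1300, 3580 and 6760 in DSS, and 650, 4080 and 5480 in Indirubin. All DSS libraries were above all Control libraries, while Indirubin-1 fell between Control-1 and Control-2. In each group the libraries stood in the same order in Hpx as in the sum of the 12 acute-phase genes, and a link between them was not tested. Between DSS and Control Hpx rose by a log2 fold change of 2.65 ± 0.51 (SE, adjusted p = 0.0321 by edgeR). This call was kept without DSS-1 (adjusted p = 0.00274) and lost without any other of the 6 libraries, when the adjusted p by edgeR ran from 0.0718 to 0.34 and the log2 fold change from 2.04 to 2.84. It was also lost in the fit of all 9 libraries (adjusted p = 0.204 by edgeR). Between Indirubin and Control the log2 fold change was 2.48 ± 0.68 (SE, adjusted p = 0.136 by edgeR). It was 2.83 without Indirubin-1, when it was called (adjusted p = 0.000557 by edgeR), and 0.05 with Indirubin-1 alone. Indirubin against DSS stood at -0.19 ± 0.79, changed sign as libraries were left out in turn (-0.72 to 0.46) and was -2.58 with Indirubin-1 alone.

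Hp is the gene of haptoglobin, which binds free hemoglobin. It was at 574, 725 and 440 CPM in Control, 1130, 3750 and 5490 in DSS, and 468, 3430 and 4840 in Indirubin. It rose between DSS and Control by a log2 fold change of 2.60 ± 0.50 (SE, adjusted p = 0.0321 by edgeR) and was the only called gene of the 8 tested in its list of heme and hemoglobin handling, against 0.214% of all genes called higher. As with Hpx, the call was kept without DSS-1 and lost without any other library (adjusted p from 0.0787 to 0.326 by edgeR), and it was lost in the fit of all 9 libraries (adjusted p = 0.231 by edgeR). Against Control the Indirubin value was 2.37 (adjusted p = 0.161 by edgeR), -0.32 with Indirubin-1 alone, and 2.73 and called without it (adjusted p = 0.000662 by edgeR). For every 1000 Hpx counts there were 109, 96.4 and 30 Hamp counts in Control, 25.8, 30.6 and 15 in DSS, and 18.9, 4.96 and 1.28 in Indirubin, a description that uses the Hamp counts behind the choice of genes.

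Hmox1, which encodes the inducible heme-degrading enzyme, was at 13.4, 14.4 and 12.2 CPM in Control, 7.47, 6.91 and 9.23 in DSS, and 13.2, 33.9 and 34.4 in Indirubin. All DSS libraries were below Control, and all Indirubin libraries were above DSS. The log2 fold change was -0.72 between DSS and Control (adjusted p = 0.764 by edgeR) and 1.79 ± 0.46 (SE) between Indirubin and DSS (adjusted p = 0.433 by edgeR). Without Indirubin-1 the latter was 2.01 and was called (adjusted p = 0.0232 by edgeR), and DESeq2 called it with all libraries (adjusted p = 0.0494). With Indirubin-1 alone it was 0.75 (adjusted p = 1 by edgeR). Blvrb, a biliverdin reductase, was at -0.37 between Indirubin and Control, and Slc48a1, a heme transporter, at -0.32 between Indirubin and DSS.

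**Figure D3:**
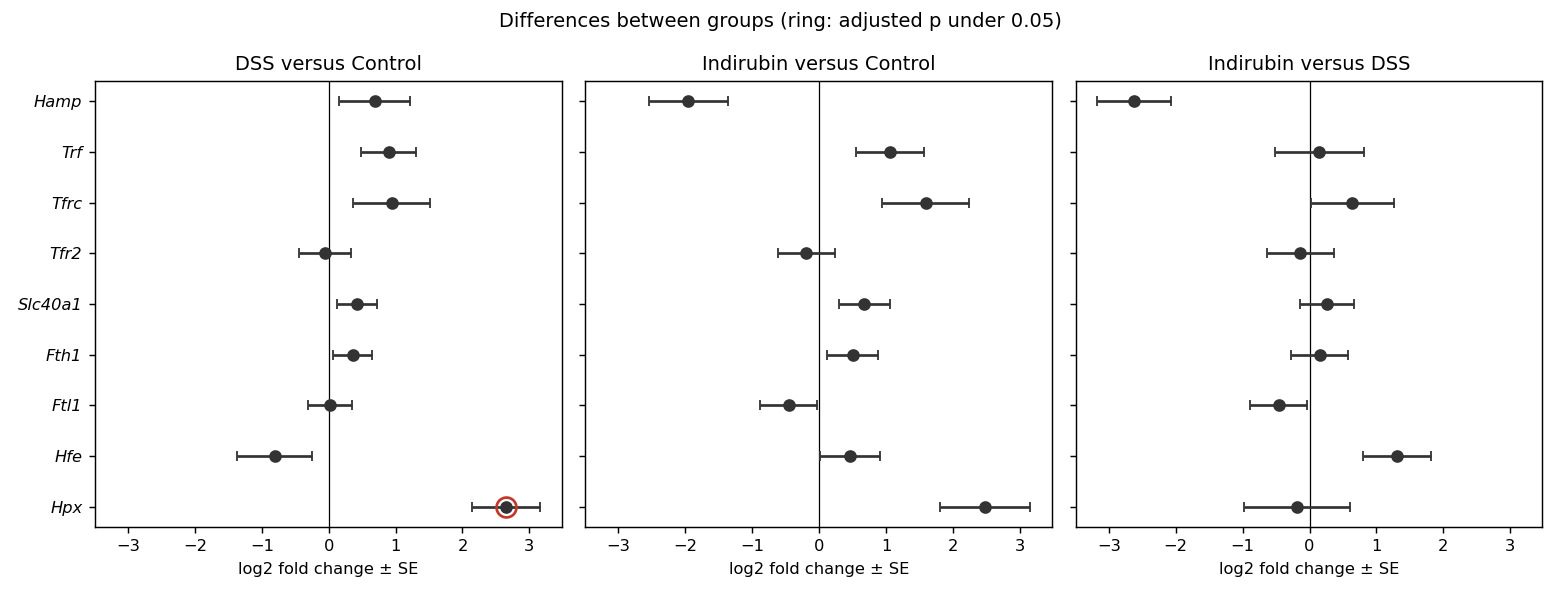
Log2 fold change ± SE of the 9 iron genes that passed the filter in each comparison, with the zero line drawn and a ring around values with an adjusted p under 0.05. Hpx between DSS and Control, at 2.65, has the only ring; no iron gene was tested between Indirubin and DSS, where Hamp stood at -2.63 and Hfe at 1.31.

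Trf encodes transferrin, the plasma iron carrier made by hepatocytes. It was at 2580, 3010 and 2550 CPM in Control, 2670, 4200 and 8070 in DSS, and 2520, 6760 and 7290 in Indirubin. DSS-1 and Indirubin-1 lay within or just below the Control range and the other colitis libraries above it. The log2 fold change was 0.90 ± 0.42 (SE) between DSS and Control (adjusted p = 0.666 by edgeR) and 1.06 ± 0.51 between Indirubin and Control (adjusted p = 0.392 by edgeR). Without Indirubin-1 the latter was 1.26 and was called (adjusted p = 0.0426 by edgeR), and with Indirubin-1 alone it was -0.12. Indirubin against DSS stood at 0.15 ± 0.66, changed sign as libraries were left out in turn (-0.26 to 0.67) and was -0.98 with Indirubin-1 alone. The ratio of Hpx to Trf counts within a library was 0.234, 0.266 and 0.185 in Control, 0.488, 0.852 and 0.837 in DSS, and 0.258, 0.603 and 0.752 in Indirubin.

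Tfrc encodes transferrin receptor 1, the main entry for transferrin-bound iron and abundant on erythroid precursors. It was at 4.28, 2.64 and 3.65 CPM in Control, 5.45, 5.49 and 9.05 in DSS, and 2.94, 8.03 and 20 in Indirubin. DSS libraries lay above Control, and Indirubin-1 lay within the Control range. The counts were 15 to 22 in Control, which limits the precision of these values. The log2 fold change was 0.94 ± 0.57 (SE) between DSS and Control (adjusted p = 0.857 by edgeR) and 1.59 ± 0.65 between Indirubin and Control (adjusted p = 0.293 by edgeR). It was 0.69 without Indirubin-3 and -0.28 without both Indirubin-2 and Indirubin-3. Indirubin against DSS stood at 0.64 ± 0.62, with -0.26 without Indirubin-3 and -1.18 with Indirubin-1 alone.

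The 7 erythroid genes measured summed to 112, 267 and 144 CPM in Control, 148, 256 and 238 in DSS, and 167, 675 and 651 in Indirubin. The highest sums were in Indirubin-2 and Indirubin-3, while DSS-3, second to Indirubin-3 in Tfrc, had a sum inside the Control range. Hbb-bs, an adult globin, was at 28.4 to 54.6 CPM in Control and at 381 and 309 in Indirubin-2 and Indirubin-3. Slc4a1, the band 3 gene of red cells, had 88 and 39 counts in these libraries and 0 to 7 in the others. The part of blood in the Tfrc level was not tested.

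Of 7 other uptake genes 5 were tested in each comparison and none was called by edgeR. Their number at an unadjusted p under 0.05 was 0 between DSS and Control, 2 between Indirubin and Control and 1 between Indirubin and DSS, against 7.52%, 13.8% and 7.68% of all genes. Steap4, an endosomal ferrireductase, was at 9.53, 6.69 and 4.87 CPM in Control, 8.06, 12.4 and 20.4 in DSS, and 3.67, 34.1 and 71.5 in Indirubin. For Steap4 the log2 fold change was 0.98 between DSS and Control (adjusted p = 0.684 by edgeR) and 2.40 between Indirubin and Control (adjusted p = 0.184 by edgeR), and the latter was 2.79 and called without Indirubin-1 (adjusted p = 0.00252 by edgeR) but turned to -0.95 with Indirubin-1 alone. Slc39a14, a carrier of iron not bound to transferrin, was at 7.11, 4.78 and 7.50 CPM in DSS and 5.88, 18.4 and 22.6 in Indirubin, a log2 fold change of 1.27 (adjusted p = 0.603 by edgeR) that became -0.14 with Indirubin-1 alone. Among genes with a lower value, Slc39a8 was at -0.38 between DSS and Control, Steap3 at -1.42 (-0.74 without Control-3) between Indirubin and Control and Steap2 at -0.88 between Indirubin and DSS.

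Ferritin, the iron store of the cell, is built of heavy chains from Fth1, which oxidize iron, and light chains from Ftl1. Fth1 was at 400, 435 and 486 CPM in Control, 584, 495 and 573 in DSS, and 511, 625 and 704 in Indirubin. Every colitis library, with or without indirubin, lay above every Control library. The difference was small beside its error, with a log2 fold change of 0.36 ± 0.30 (SE) between DSS and Control (adjusted p = 0.949 by edgeR) and 0.50 ± 0.38 between Indirubin and Control (adjusted p = 0.628 by edgeR). Against DSS the Indirubin value was 0.16 ± 0.43.

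Ftl1 was at 274, 337 and 513 CPM in Control, 369, 338 and 411 in DSS, and 368, 254 and 188 in Indirubin. The groups overlapped in each comparison. Its log2 fold change was 0.02 ± 0.33 (SE) between DSS and Control (adjusted p = 1 by edgeR), -0.46 ± 0.42 between Indirubin and Control (adjusted p = 0.708 by edgeR) and -0.46 ± 0.43 between Indirubin and DSS. The 8 ferritin pseudogenes listed in the table held 24 counts in all 9 libraries together, and reads shared with them remain a source of uncertainty for both chains.

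The ratio of heavy to light chain counts is free of scaling between libraries. It was 1.46, 1.29 and 0.948 in Control, 1.58, 1.47 and 1.39 in DSS, and 1.39, 2.46 and 3.75 in Indirubin. The ratio was above 2 in Indirubin-2 and Indirubin-3 alone, the libraries with acinar transcripts and the highest erythroid sums. Indirubin-1 fell within the Control range and equalled the lowest DSS library at this precision. The part of those other cells in the ratio was not tested.

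**Figure D4:**
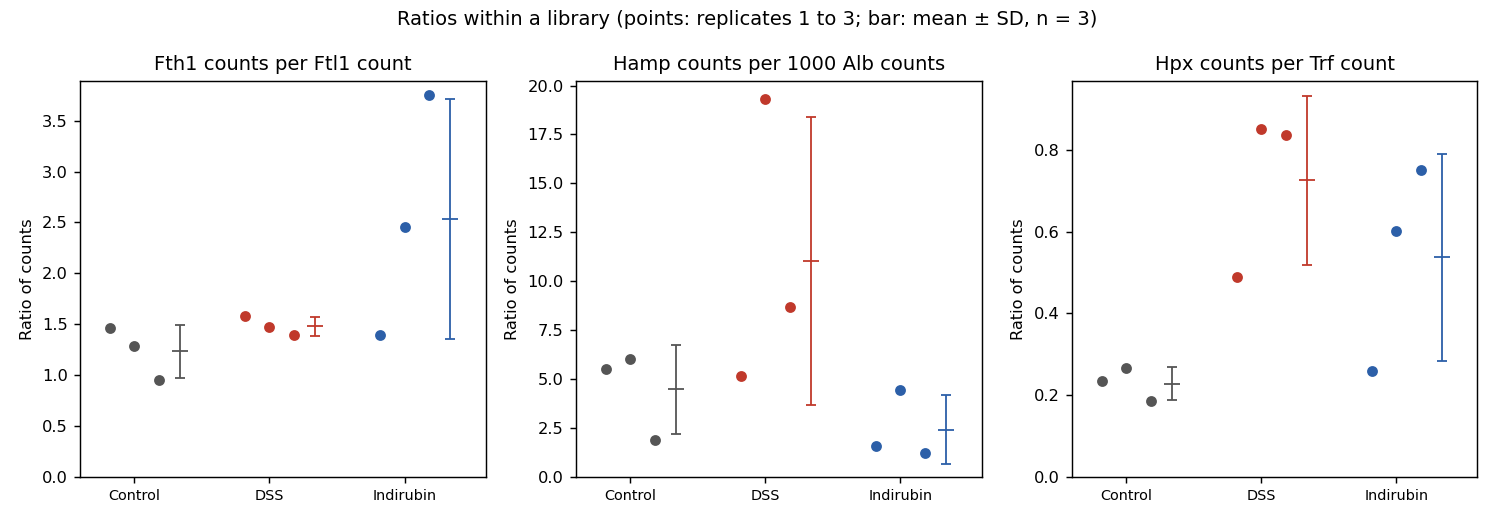
Ratios of counts within each library, for Fth1 per Ftl1, Hamp per 1000 Alb and Hpx per Trf; points are replicates 1 to 3 of a group and bars are mean ± SD (n = 3), with axes from 0. The ferritin ratio reached 2.46 and 3.75 in Indirubin-2 and Indirubin-3, and Hamp per 1000 Alb was at most 4.43 in Indirubin and at least 5.14 in DSS. The Hamp counts are those by which the genes were chosen, so that panel is a description.

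Of 4 other genes of ferritin loading and release, 3 were tested and none was called by edgeR, with 1 gene at an unadjusted p under 0.05 in each comparison, beside 7.52% of all genes between DSS and Control, 13.8% between Indirubin and Control and 7.68% between Indirubin and DSS. Pcbp2, an iron chaperone that also binds RNA, was at 20.6, 14.3 and 18.0 CPM in Control, 36.0, 27.6 and 24.3 in DSS, and 27.9, 44.3 and 35.5 in Indirubin. Both colitis groups lay wholly above Control, with log2 fold changes of 0.77 (adjusted p = 0.631 by edgeR) in DSS and 1.05 (adjusted p = 0.22 by edgeR) in Indirubin. Ncoa4, the receptor that delivers ferritin to lysosomes, was at 13.8, 16.4 and 22.4 CPM in Control, 36.9, 30.7 and 12.2 in DSS, and 6.24, 13.5 and 7.86 in Indirubin. For Ncoa4 the log2 fold change was -1.52 ± 0.50 (SE) between Indirubin and DSS (adjusted p = 0.478 by edgeR) and -0.89 between Indirubin and Control (adjusted p = 0.379 by edgeR), with DSS-3 inside the Indirubin range.

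Slc40a1, the gene of ferroportin, the exporter that hepcidin acts on, was at 27.0, 30.8 and 30.4 CPM in Control, 41.0, 33.8 and 41.0 in DSS, and 66.1, 43.2 and 29.9 in Indirubin. DSS lay wholly above Control, and Indirubin spread from within the Control range to the highest value of the 9 libraries, which was Indirubin-1. The log2 fold change was 0.43 ± 0.30 (SE) between DSS and Control (adjusted p = 0.906 by edgeR), 0.68 ± 0.38 between Indirubin and Control (adjusted p = 0.469 by edgeR) and 0.26 ± 0.40 between Indirubin and DSS. Without Indirubin-1 the Indirubin values were 0.20 against Control and -0.18 against DSS. Liver macrophages are rich in ferroportin, and 11 Kupffer cell and macrophage markers summed to 114 to 195 CPM in Control, 155 to 176 in DSS and 175, 276 and 253 in Indirubin. Marco, a scavenger receptor, was the only marker of the 11 called, against 0.708% of all genes in DSS and 0.236% in Indirubin, with log2 fold changes of 2.43 in DSS (adjusted p = 0.0443 by edgeR) and 3.82 in Indirubin (adjusted p = 0.0468 by edgeR) against Control. The part of macrophages in the Slc40a1 level was not tested.

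Cp, the gene of ceruloplasmin, the ferroxidase that works with ferroportin, was the only one of 3 other export genes above the filter. It was at 165, 154 and 88.2 CPM in Control, 121, 259 and 271 in DSS, and 120, 525 and 1030 in Indirubin. Its log2 fold change was 0.72 between DSS and Control (adjusted p = 0.721 by edgeR), 2.07 between Indirubin and Control (adjusted p = 0.175 by edgeR) and 1.36 between Indirubin and DSS (adjusted p = 0.692 by edgeR). With Indirubin-1 alone these Indirubin values were -0.19 and -0.86, and without it the difference from Control was 2.40 and called (adjusted p = 0.00271 by edgeR).

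Of 3 genes for the iron-regulatory proteins and their turnover, none was called by edgeR. Against Control 1 had an unadjusted p under 0.05 in DSS, where 7.52% of all genes did, and 2 in Indirubin, where 13.8% did. Ireb2, which encodes iron-regulatory protein 2, was at 19.5, 14.6 and 20.2 CPM in Control, 8.42, 8.68 and 5.58 in DSS, and 3.86, 10.1 and 6.83 in Indirubin. For Ireb2 the log2 fold change was -1.22 ± 0.40 (SE) between DSS and Control (adjusted p = 0.358 by edgeR) and -1.34 ± 0.43 between Indirubin and Control (adjusted p = 0.188 by edgeR), and neither group overlapped Control. Aco1, which encodes iron-regulatory protein 1, was at 18.9, 15.3 and 20.2 CPM in Control, 19.7, 7.97 and 7.04 in DSS, and 9.36, 3.77 and 6.57 in Indirubin, with DSS-1 inside the Control range. Its log2 fold change was -1.46 ± 0.42 (SE) between Indirubin and Control (adjusted p = 0.155 by edgeR) and -0.83 between Indirubin and DSS. The former was -1.92 without Indirubin-1 and was then called (adjusted p = 0.0254 by edgeR). Fbxl5, the subunit of the ubiquitin ligase that removes iron-regulatory protein 2, stood at 0.14 against Control and 0.13 against DSS in the Indirubin group, and at 0.0020 between DSS and Control.

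Of 7 genes of mitochondrial iron use, all were tested in each comparison and none was called by edgeR, with 1 at an unadjusted p under 0.05 in each, beside 7.52% (DSS and Control), 13.8% (Indirubin and Control) and 7.68% (Indirubin and DSS) of all genes. Cisd1, an iron-sulfur protein of the outer mitochondrial membrane, was at 13.4, 18.5 and 10.7 CPM in Control, 4.03, 6.56 and 10.5 in DSS, and 7.34, 6.97 and 6.57 in Indirubin. Neither colitis group overlapped Control, with log2 fold changes of -0.98 (adjusted p = 0.658 by edgeR) in DSS and -1.003 (adjusted p = 0.272 by edgeR) in Indirubin. Iscu, the scaffold for iron-sulfur clusters, had a log2 fold change of 1.18 between Indirubin and DSS (adjusted p = 0.627 by edgeR) and 0.63 between Indirubin and Control. Nfs1, the sulfur donor, was at 0.95 between DSS and Control, from 0.13 without DSS-1 to 3.25 without Control-2.

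Over the 69 genes of these wider lists, the 10 iron genes left out, 58 were tested between DSS and Control, and 9 were called higher and none lower, against 0.214% of all genes called higher and 0.495% called lower. The 9 were Fgl1, Hp and 7 acute-phase genes. The number called was 4 without Control-2 or Control-3 and 5 without DSS-3, when edgeR called 12, 15 and 19 of all genes. Between Indirubin and Control 58 were tested and none was called by edgeR, 16 higher and 4 lower had an unadjusted p under 0.05, against 7.45% and 6.38% of all genes, and DESeq2 called 10, against 3.92%. Without Indirubin-1 edgeR called 18, and the share of all genes called rose to 4.78%. Between Indirubin and DSS 60 were tested and none was called by edgeR, 6 higher and 2 lower had an unadjusted p under 0.05, against 4.45% and 3.22% of all genes, and DESeq2 called 1, against 0.878%. Without Indirubin-1 edgeR also called 1, against 1.24%. The median log2 fold change of the tested genes of these lists was 0.29, 0.54 and -0.03 in the 3 comparisons, against 0.01, 0.13 and 0.15 for all genes tested.

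Compared per kilobase of gene length, the mean level over the 9 libraries was highest for Hpx, at 1760 normalized CPM per kb, followed by Trf at 1330, Ftl1 at 253, Fth1 at 154 and Hamp at 120. Tfr2 followed at 10.6, Slc40a1 at 4.24, Hfe at 1.94, Tfrc at 1.11 and Hamp2 at 0.807. Hpx stood 25th and Hamp 95th among all genes of the table on this scale. The place of Ftl1 above Fth1 rests on the lengths in the deposited table, 1340 and 3469 bases. Their GENCODE transcripts shown above for the iron-responsive elements held 968 and 929 bases.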

How the data were processed

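Whole-liver RNA of 9 libraries (3 each of Control, DSS and Indirubin) was sequenced on a DNBSEQ platform. The authors deposited a table with raw read counts per gene and, beside them, length-scaled FPKM values and gene lengths. The submitters' processing notes name GRCm39. The aligner, counter, annotation and strand setting were not given in the sources used here. Counts were used for every test. The deposited FPKM entered no reported value, and gene length served for levels per kilobase. Columns of the authors' own comparisons (fold changes and p-values) and 3 further gene lists were not used.

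The genes and lists were chosen with earlier results of these data known. Groups came from the labels. Each comparison was fitted on its own 6 libraries in edgeR 4.0.16 (R 4.3.3) with filterByExpr (minimum count 10, minimum total 15), TMM normalization, the quasi-likelihood test and Benjamini-Hochberg adjustment over all genes tested, with a threshold of 0.05. SE is the log2 fold change divided by the root of its F statistic. DESeq2 1.42.0 was an alternative. The procedure was tested on simulated data. Replicate pairs differed by more than counting noise (chi-square per degree of freedom 12.6 to 47.3), so none was counted as the same library. Genes named in the text were the 10 iron genes, up to 4 called genes by smallest p for each list, direction and comparison, or, where none was called, the gene with the smallest unadjusted p in each direction. The 5 genes of highest correlation with Hamp were also to be named. A few genes that these rules pick are not reported here. Bmp6, Erfe, Alb, Marco, Hbb-bs and Slc4a1, and values of named genes in further comparisons, were added after their values were seen. Sequences came from RefSeq promoters (GRCm38.p6) and GENCODE vM21 transcripts, while gene positions are those of the deposited table. Figures were drawn with matplotlib 3.10.9.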

Additional observations from a re-analysis of the deposited data

How the results depend on the processing

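The numbers of iron genes called rest on few libraries. Between DSS and Control 1 was called, and 0 in the fit of all 9 libraries or as libraries were left out in turn (0 to 1). The wider lists had 9 called, and 5 in the fit of all 9 libraries or 4 to 13 as libraries were left out. Over all genes 53 were called, and 11 in the fit of all 9 libraries or 12 to 64 as libraries were left out. Between Indirubin and Control, where 0 were called, the numbers of iron genes and of wider list genes were 2 and 13 with scaling by library size alone, 1 and 12 with no filter, 1 and 10 with DESeq2, and 0 to 2 and 0 to 18 as libraries were left out, the highest without Indirubin-1. The calls over all genes rose as well, from 19 of 8059 to 266 of 8059 with library size alone and 379 of 22767 with no filter. They were 316 of 8051 with DESeq2 and 465 of 9721 without Indirubin-1. The wider lists had 6 in the fit of all 9 libraries and 3 where no library was allowed under 10 counts, beside 56 and 72 of all genes. Between Indirubin and DSS the wider lists had 2 with no filter, 1 with DESeq2 and 0 to 1 as libraries were left out. All genes called there numbered 156, 80 and 0 to 134. In 3 libraries a group, 1 library can decide a call, and whether the Indirubin-1 pattern is of that mouse or of its library cannot be told apart.

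Same-numbered libraries did not deviate together (correlations from -0.0248 to 0.0243), so the numbers do not pair them. With the replicate number as a block, 0 iron genes and 5 wider list genes were called between DSS and Control, and 1 wider list gene between Indirubin and Control. All genes called with the block numbered 30 and 49 in these comparisons. The block turned the log2 fold change of Fbxl5 to -0.18 (Indirubin and Control) and -0.21 (Indirubin and DSS). It ended the calls of Hpx (adjusted p = 0.167 by edgeR) and Hp (0.163) between DSS and Control.

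Scaling by library size alone moved the median log2 fold change of all genes to 0.70, 1.11 and 0.43 in the 3 comparisons. It turned the log2 fold changes of Tfr2 (0.73) and Slc39a8 (0.34) between DSS and Control, of Tfr2 (0.82), Ftl1 (0.47), Ncoa4 (0.23), Blvrb (0.66) and Jak2 (0.33) between Indirubin and Control, and of Slc48a1 (0.0665), Tfr2 (0.0944) and Hpx (0.21) between Indirubin and DSS. Between DSS and Control the sign of Fbxl5, near 0, turned with DESeq2 size factors (-0.0064), without mitochondrial genes (-0.0015), with the DESeq2 test (-0.0056) and in the fit of all 9 libraries (-0.0295), where Ftl1 stood at -0.0077. As libraries were left out in turn, signs changed for Tfr2 (-0.47 to 0.25), Ftl1 (-0.18 to 0.29), Slc39a8 (-1.04 to 0.20) and Fbxl5 (-0.26 to 0.18) between DSS and Control, for Fbxl5 (-0.31 to 0.46) and Jak2 (-1.18 to 0.47) between Indirubin and Control, and for Fbxl5 (-0.33 to 0.50), Hpx (-0.72 to 0.46), Tfr2 (-0.63 to 0.31), Tfrc (-0.26 to 0.97), Trf (-0.26 to 0.67) and Slc40a1 (-0.18 to 0.50) between Indirubin and DSS.

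Leaving out Indirubin-2 and Indirubin-3 together was chosen after seeing the data. Against Control the log2 fold changes turned to -0.12 for Trf, -0.28 for Tfrc, -0.34 for Fgl1, -0.95 for Steap4, -0.19 for Cp, -2.27 for Fbxl5, -0.32 for Hp and -0.47 for Iscu. Against DSS they turned to -0.98 for Trf, -1.18 for Tfrc, -0.10 for Fth1, -0.14 for Slc39a14, -0.0661 for Pcbp2, -0.86 for Cp, -2.24 for Fbxl5, 0.0481 for Il6st and -2.48 for Saa3. In these fits the lone library is assumed to vary like the others, and the cause of these shifts was not tested.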
